A study of Mus musculus with 9 samples.

Results

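The 9 genes described here are the SLAM family genes *Slamf1*, *Slamf6*, *Slamf7*, *Slamf8*, *Slamf9*, *Cd48*, *Cd84* and *Ly9* and the adaptor gene *Sh2d1a*, which encodes the SLAM-associated protein SAP. They were chosen by name from the 27179 genes of the count table, because 8 of them lie on chromosome 1 near *Fcgr2b*, in a stretch known from lupus-prone mice, and the ninth encodes the adaptor that many of these receptors use. Poly(A) RNA of whole mandibles with their teeth was sequenced for 5 wild-type (WT) mice and for 4 mice whose labels give the genotype *FcγRIIB*-/-. All 9 were 6 months old, and no treatment is given for either group. The study's methods give male sex and the C57BL/6 background for the *FcγRIIB*-/- mice, and name the others only as WT controls. Its supplementary table of blood counts calls the controls there littermates, and this is not stated for the sequenced mice. *Fcgr2b* encodes the inhibitory Fc receptor for IgG, and its loss was studied as a mouse model of lupus. The mice were genotyped from tail DNA, and the sources used here do not give the strain of origin of the chromosome around it. A mandible holds bone, marrow, tooth, muscle and mucosa, so a transcript level is an average over all of these.

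SLAM family receptors are immunoglobulin-like proteins on the surface of blood cells. Most of them bind the same receptor on a neighbouring cell, and a tyrosine switch motif in their tail recruits SAP, which brings the kinase Fyn. CD48 has no tail of its own and serves as a ligand of CD2 and of CD244, while SLAMF8 and SLAMF9 have short tails without the switch motif and are best known from myeloid cells. In mandible such transcripts can come from marrow white blood cells and from macrophages of the bone, the dental pulp and the mucosa. All members are therefore read beside white blood cell genes of the same mouse.

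The start sites of 4 members are shown first because their transcripts behaved differently: *Slamf7* had the largest difference between the groups, *Cd84* and *Slamf8* were lower without overlap, and *Slamf9* had no detectable difference. The windows run from 250 bases before to 50 bases after a RefSeq transcript start in GRCm38.p6, the same assembly as the mm10 of the counts. They are written in the direction of transcription, and capitals mark GAGGAA or its reverse complement TTCCTC, the core that the myeloid and B cell factor PU.1 is known to bind.
Slamf7 (chr1:171648950-171649249, minus strand): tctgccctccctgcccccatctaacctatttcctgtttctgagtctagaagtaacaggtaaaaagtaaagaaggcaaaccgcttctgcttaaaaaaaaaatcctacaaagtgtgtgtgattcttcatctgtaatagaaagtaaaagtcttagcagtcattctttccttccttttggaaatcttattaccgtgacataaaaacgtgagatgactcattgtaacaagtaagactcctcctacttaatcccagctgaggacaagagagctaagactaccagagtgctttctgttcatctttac
Cd84 (chr1:171839447-171839746, plus strand): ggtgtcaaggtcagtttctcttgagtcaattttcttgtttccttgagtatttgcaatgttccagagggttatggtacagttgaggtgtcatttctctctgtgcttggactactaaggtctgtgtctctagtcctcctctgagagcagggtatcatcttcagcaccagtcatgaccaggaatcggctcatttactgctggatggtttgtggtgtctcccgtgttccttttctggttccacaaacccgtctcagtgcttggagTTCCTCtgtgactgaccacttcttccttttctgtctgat
Slamf8 (chr1:172590519-172590818, minus strand): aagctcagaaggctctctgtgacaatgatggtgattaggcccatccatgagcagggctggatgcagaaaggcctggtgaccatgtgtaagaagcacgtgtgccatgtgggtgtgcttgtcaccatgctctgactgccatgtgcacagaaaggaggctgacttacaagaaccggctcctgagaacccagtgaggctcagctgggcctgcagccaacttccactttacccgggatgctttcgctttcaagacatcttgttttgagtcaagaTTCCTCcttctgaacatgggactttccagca
Slamf9 (chr1:172475110-172475409, plus strand): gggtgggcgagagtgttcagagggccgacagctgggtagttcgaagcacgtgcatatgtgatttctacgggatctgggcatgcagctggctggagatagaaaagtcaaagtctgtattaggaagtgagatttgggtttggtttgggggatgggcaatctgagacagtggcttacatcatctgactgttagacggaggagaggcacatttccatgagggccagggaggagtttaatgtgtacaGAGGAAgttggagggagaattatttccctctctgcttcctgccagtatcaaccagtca
The *Slamf9* window held the letters 8 bases upstream of the start site, and the windows of *Cd84* and *Slamf8* held them on the opposite strand, 11 and 19 bases past the start site. Promoter windows were found for 7 of the 9 members, all except *Ly9* and *Sh2d1a*, and 3 of the 7 held GAGGAA on either strand. Of all 32851 windows of this length, 28.3% held it. TGTGGT, the core bound by RUNX factors, was in 2 of the 7 (*Cd48* and *Cd84*) and in 16.8% of all windows, and TATAAA in 0 of the 7 and in 13.6% of all windows. Both strands were searched, and the motifs do not overlap each other in their letters. These matches describe the windows and do not separate the members that fell from *Slamf9*, and a window without a match lacks these letters only.

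Totals lay between 24158960 and 26787359 counts in WT and between 21453880 and 28991631 in the mice labelled *FcγRIIB*-/-. After low counts were filtered, 16329 genes were tested with edgeR's quasi-likelihood test, with Benjamini-Hochberg adjustment over all of them at 0.05. The targeted gene, *Fcgr2b*, showed no decrease in the mice labelled *FcγRIIB*-/-. Its CPM, the usual read count in proportion to a TMM-normalized library total, averaged 24.0 ± 8.28 over the WT mice (SD, n = 5) and 27.8 ± 2.90 over the others (SD, n = 4), and the log2 fold change was 0.21 (adjusted p = 0.442). Counts per gene do not show which part of a gene the reads came from, so this value does not test the deletion. The groups are therefore named by their labels, and every direction below is between libraries by label. Without WT replicate 2 this log2 fold change of *Fcgr2b* was 0.46 (adjusted p = 0.0131). WT replicate 2 was the highest WT library for every member and for the pan-leukocyte genes. Calls of members that depend on it are therefore given with and without it.

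Most SLAM family transcripts were lower in the mice labelled *FcγRIIB*-/-, whereas the means of *Slamf9* nearly coincided. Of the 9 members, 8 passed the filter on low counts and *Sh2d1a* did not. Of the 8 tested, 6 were lower (*Slamf1*, *Slamf7*, *Slamf8*, *Cd48*, *Cd84* and *Ly9*), 0 were higher, and *Slamf6* and *Slamf9* did not pass the test. Over all tested genes 19.3% were lower and 14.0% were higher. The median log2 fold change of the 8 was -1.50, against 0.01 over all tested genes. The groups did not overlap for 4 of them (*Slamf7*, *Slamf8*, *Cd84* and *Ly9*), and 17.5% of all tested genes were lower without overlap. Without WT replicate 2, 4 members remained lower: *Slamf7*, *Slamf8*, *Cd84* and *Ly9*.

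**Figure D1:**
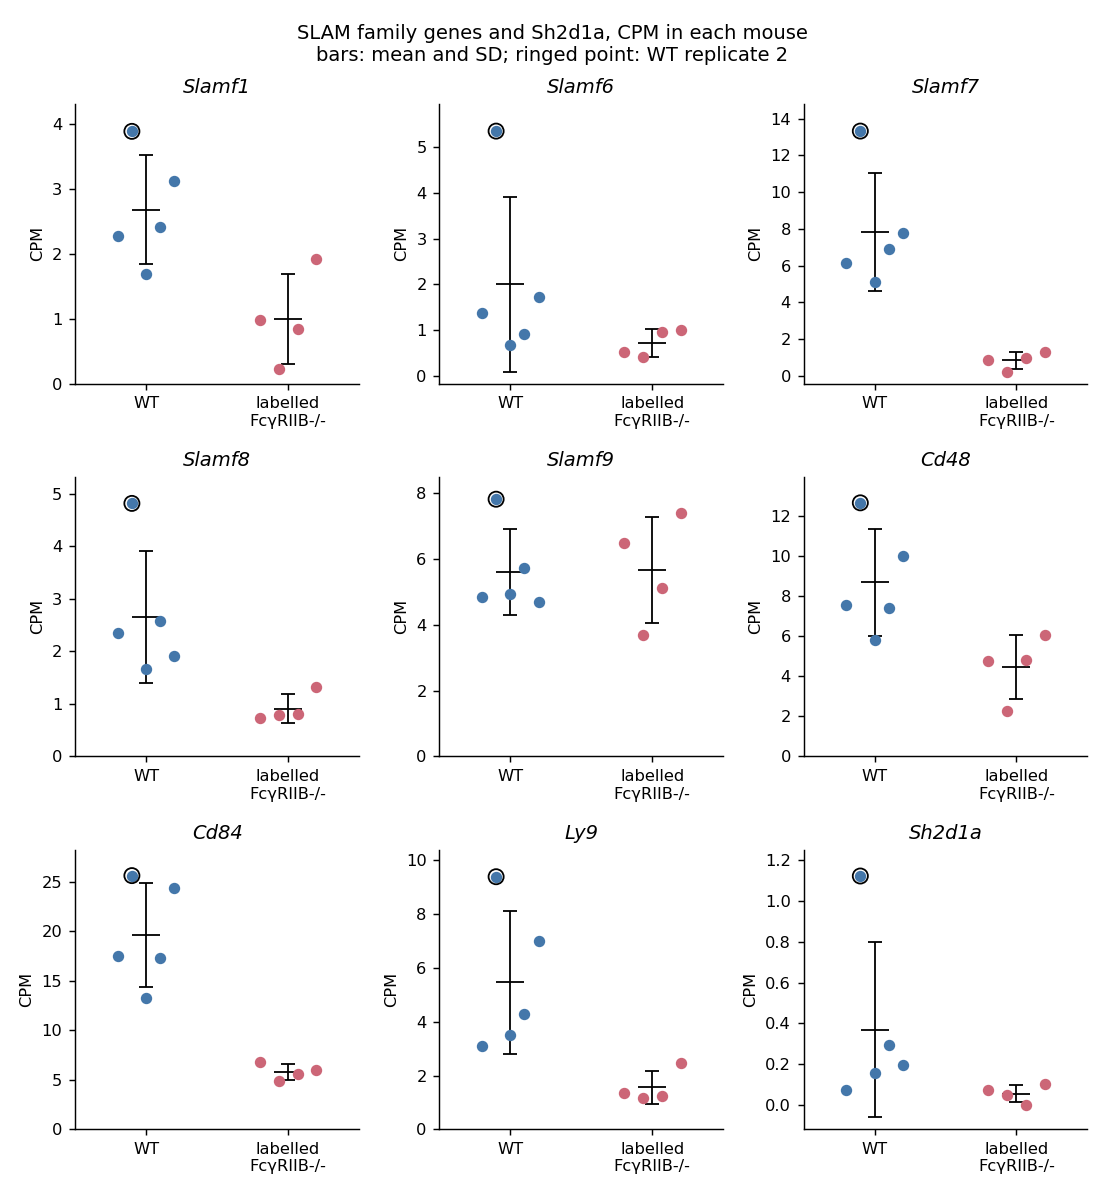
CPM (vertical axes, each panel on its own scale) of the 9 members in 5 WT mice and 4 mice labelled FcγRIIB-/-, with 1 point per mouse, the mean and the SD. WT replicate 2, ringed, is the highest WT point in every panel, and Slamf9 is the panel in which the groups lie at the same height.

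*Slamf7* encodes a receptor found on plasma cells, natural killer (NK) cells and activated macrophages. Its reads numbered 170, 332, 132, 188 and 199 across WT replicates 1 to 5, as against 24, 5, 23 and 26 across the 4 mice labelled *FcγRIIB*-/-. The highest of the latter, at 1.32 CPM, lay below the lowest WT mouse, at 5.09 CPM. The means were 7.85 ± 3.21 CPM (SD, n = 5) and 0.841 ± 0.454 CPM (SD, n = 4), which is 9.33-fold lower and a log2 fold change of -3.22 (SE 0.42 and adjusted p = 0.000639). Replicate 2 of the mice labelled *FcγRIIB*-/- was lowest, with 5 counts, and WT replicate 2 was highest. Without WT replicate 2 the log2 fold change was -2.93 (adjusted p = 0.000560). The next in size among the 8 tested members was *Ly9*, at -1.81.

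*Cd84* encodes a receptor that binds itself on B cells, platelets, mast cells and macrophages, and its transcript had the most counts of the 9. It had 484, 639, 344, 473 and 625 counts in WT, and 193, 106, 132 and 118 counts in the mice labelled *FcγRIIB*-/-. Every WT mouse lay above every mouse of the other group, and the latter were close together. The means were 19.6 ± 5.22 CPM (SD, n = 5) and 5.81 ± 0.778 CPM (SD, n = 4), a log2 fold change of -1.75 (SE 0.20 and adjusted p = 0.000352).

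*Ly9* encodes a receptor of T and B lymphocytes that also binds itself. It had 86, 234, 91, 117 and 179 counts in WT, against 39, 25, 29 and 49 in the mice labelled *FcγRIIB*-/-. The groups did not overlap, and WT replicates 2 and 5 stood above the other WT mice. Mean CPM values were 5.46 ± 2.67 (SD, n = 5) and 1.56 ± 0.623 (SD, n = 4), a log2 fold change of -1.81 (SE 0.38 and adjusted p = 0.00549).

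*Slamf1* encodes the founding member, a receptor of lymphocytes, macrophages and blood stem cells that also senses bacteria. It had 63, 97, 44, 66 and 80 counts in WT and 28, 5, 20 and 38 counts in the mice labelled *FcγRIIB*-/-. The highest of the latter exceeded the lowest WT mouse in CPM, so the groups overlapped. The log2 fold change was -1.44 (SE 0.44 and adjusted p = 0.0305), and without WT replicate 2 it was -1.25 (adjusted p = 0.0562). This call was also lost without WT replicate 5 (adjusted p = 0.0525) and without replicates 1 and 3 of the mice labelled *FcγRIIB*-/-, each left out alone (adjusted p = 0.0708 and 0.0783).

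*Slamf6* encodes a receptor of T, B and NK cells. It had 38, 133, 18, 25 and 44 counts in WT and 15, 9, 23 and 20 counts in the mice labelled *FcγRIIB*-/-. A single mouse, WT replicate 2, stood far above all others, at 4.54 times the mean CPM of the other WT mice. The log2 fold change was -1.46 (SE 0.60 and adjusted p = 0.0866). Without that mouse it was -0.68 (adjusted p = 0.199). WT replicate 2 was also the highest library for the summed pan-leukocyte, T cell, B cell, NK cell, plasma cell, macrophage, dendritic cell, mast cell and bone markers, and their part in this value was not tested.

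*Cd48* encodes the membrane-anchored ligand of CD2 and CD244, present on nearly all white blood cells. It had 209, 315, 150, 202 and 256 counts in WT and 136, 49, 113 and 119 counts in the mice labelled *FcγRIIB*-/-. The highest mouse of the latter reached 6.03 CPM and the lowest WT mouse 5.78 CPM, so the groups overlapped slightly. Its log2 fold change of -0.96 (SE 0.29 and adjusted p = 0.0272) was the smallest in size among the 6 that passed. The call was lost when any of WT replicates 2 or 5 or replicates 1, 2 or 3 of the mice labelled *FcγRIIB*-/- was left out (adjusted p between 0.0501 and 0.0553).

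*Slamf8* and *Slamf9*, the members without the switch motif, lie near each other at the far end of the cluster and behaved differently. *Slamf8*, which is known to restrain the oxidative burst of macrophages, had 65, 120, 43, 70 and 49 counts in WT and 21, 17, 19 and 26 counts in the mice labelled *FcγRIIB*-/-, with no overlap. Its log2 fold change was -1.55 (SE 0.35 and adjusted p = 0.00737), and without WT replicate 2 it was -1.22 (adjusted p = 0.00721). *Slamf9* had 134, 195, 128, 156 and 120 counts in WT and 185, 80, 121 and 146 counts in the mice labelled *FcγRIIB*-/-. These values ran through each other, with means of 5.61 ± 1.30 CPM (SD, n = 5) and 5.68 ± 1.62 CPM (SD, n = 4). The log2 fold change of *Slamf9* was 0.02 (SE 0.22 and adjusted p = 0.957), with a 95% interval from -0.42 to 0.45. The ratio of *Slamf9* to *Slamf8* CPM in the same mouse was 1.63 to 2.98 in WT and 4.71 to 8.81 in the mice labelled *FcγRIIB*-/-.

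*Sh2d1a*, the X-linked gene of SAP, was close to the limit of detection. It had 2, 28, 4, 8 and 5 counts in WT and 2, 1, 0 and 2 counts in the mice labelled *FcγRIIB*-/-, and 3 counts in a library are the floor that a count of 0 allows. All libraries of the latter group were under that floor. Summed over mice, 47 WT counts stood against 5, a ratio of 6.69 per normalized read (95% exact Poisson interval 2.67 to 21.6, counting error only). Of the WT counts 28 came from replicate 2, and without it the ratio was 3.34 (1.21 to 11.4). In a fit with no filter on low counts its log2 fold change was -2.66 and did not pass (adjusted p = 0.0585).

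**Figure D2:**
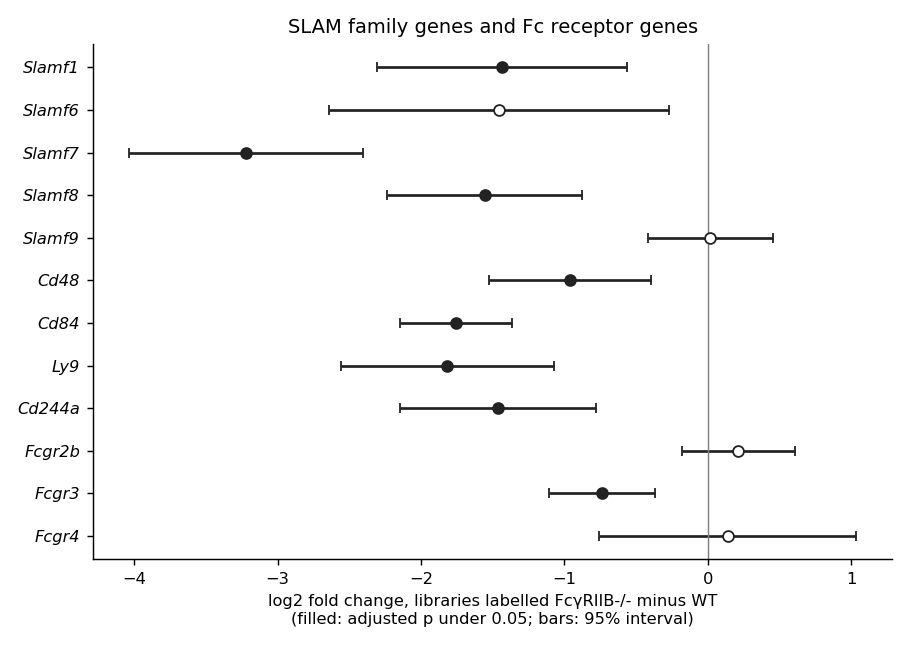
log2 fold change (horizontal axis, libraries labelled FcγRIIB-/- minus WT) of the 8 tested SLAM family members, of Cd244a and of the Fc receptor genes Fcgr2b, Fcgr3 and Fcgr4, with 95% intervals. Filled points passed the test at adjusted p under 0.05: Slamf7 lies furthest left at -3.22, and the interval of Slamf9 spans 0.

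Per length of the longest transcript, *Cd48* was the most abundant member in WT, at 7.32 ± 2.26 CPM per kb (SD, n = 5), followed by *Cd84* at 5.72 ± 1.52 and *Slamf9* at 4.27 ± 0.993. The WT order continued with *Ly9* at 2.19, *Slamf7* at 1.97, *Slamf8* at 1.60, *Slamf1* at 0.607, *Slamf6* at 0.351 and *Sh2d1a* at 0.134 CPM per kb. Neighbours in that order lay closer together than the larger of their SDs, except for *Slamf9* over *Ly9* and *Slamf8* over *Slamf1*. In the mice labelled *FcγRIIB*-/- *Slamf9* came first, at 4.32 ± 1.23 CPM per kb (SD, n = 4), ahead of *Cd48* at 3.76 ± 1.33 and *Cd84* at 1.69 ± 0.226, and *Slamf9* and *Cd48* lay closer together than either SD. *Slamf7* had dropped to 0.212 CPM per kb there, below *Slamf8* at 0.549 and at the level of *Slamf1* at 0.225.

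The make-up of the receptor transcripts shifted accordingly. Of the summed CPM per kb of the 8 receptors, *Slamf9* accounted for 13.7% to 22.5% in the WT mice and for 35.0% to 39.7% in the mice labelled *FcγRIIB*-/-. *Slamf7* accounted for 7.51% to 9.33% and 0.799% to 2.20%, and *Cd84* for 20.8% to 27.3% and 11.5% to 19.6%. The ranges of these 3 did not overlap, but shares of the same sum depend on each other. *Slamf9* itself averaged 4.27 CPM per kb in WT and 4.32 in the others, so its larger share reflects the lower level of the other receptors. The share of *Cd48* overlapped, at 30.4% ± 1.49 for WT (SD, n = 5) and 32.0% ± 4.19 for the others (SD, n = 4). The summed CPM of the 8 receptors was 36.6 to 82.9 in WT and 13.7 to 27.5 in the mice labelled *FcγRIIB*-/-.

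**Figure D3:**
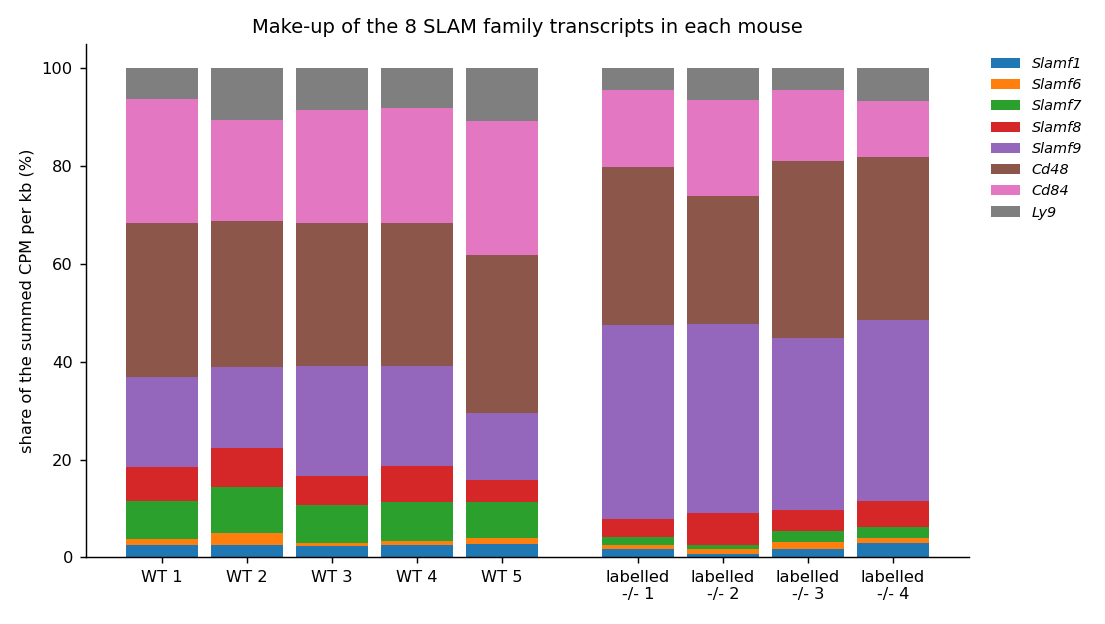
Share of each of the 8 SLAM family receptor transcripts in their summed CPM per kb (vertical axis, %), 1 bar per mouse, for 5 WT mice and 4 mice labelled FcγRIIB-/-. The Slamf9 segment is 13.7% to 22.5% in WT and 35.0% to 39.7% in the other group, and the Slamf7 segment shrinks from a mean of 8.06% to 1.72%. Shares depend on each other: the mean level of Slamf9 itself was 4.27 CPM per kb in WT and 4.32 in the other group.

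White blood cell genes as a whole were lower in the same mice. Of 10 pan-leukocyte genes, among them *Ptprc*, which encodes CD45, 9 were lower and *Cd53* did not pass, and their summed level was 329 to 731 CPM in WT and 161 to 250 CPM in the mice labelled *FcγRIIB*-/-. Their mean log2 CPM was 5.38 in WT and 4.15 in the others, a difference of -1.23 (two-sided exact permutation test, p = 0.0159). In bulk RNA fewer cells of a type and less RNA per cell cannot be told apart. Among lymphocyte and plasma cell markers the share that passed as lower differed from list to list, beside 19.3% over all tested genes, and 0 were higher. The lower genes were 9 of 11 tested B cell genes (summed 46.8 to 122.6 CPM in WT, 14.7 to 33.9 CPM in the others), 4 of 5 NK cell genes (6.75 to 14.8 and 1.85 to 6.39 CPM), 2 of 13 T cell genes (79.1 to 144.0 and 68.5 to 85.1 CPM) and 2 of 7 plasma cell genes (504 to 1285 and 451 to 526 CPM). The T cell sum was largely *Bcl11b* (means 36.9 and 35.8 CPM) and *Tcf7* (27.6 and 24.7 CPM), which did not pass. Much of the plasma cell sum was *Sdc1* (308 and 276 CPM) and *Xbp1* (155 and 164 CPM), which did not pass either. The lower plasma cell genes were *Jchain* (log2 fold change -3.75) and *Irf4* (-2.29), and *Mzb1* (-2.85) did not pass (adjusted p = 0.0505). WT replicate 2 had 659 CPM of *Jchain*, against 36.2 to 91.1 CPM in the other WT mice. Among myeloid markers the lower genes were 7 of 13 for macrophages and monocytes (516 to 773 and 423 to 524 CPM), 5 of 8 for dendritic cells (24.1 to 41.9 and 14.0 to 29.5 CPM) and 13 of 13 for neutrophils (1180 to 3596 and 148 to 433 CPM), and again 0 were higher. No listed gene was at 0 in every library, although *Vpreb2*, of pre-B cells, was at 0 in all 4 mice labelled *FcγRIIB*-/-. Its highest count in any library was 4, close to the floor of 3 counts, and it was not tested. The macrophage and monocyte list was divided. *Csf1r*, the receptor for the macrophage growth factor, *Adgre1*, *Cd68*, *Mrc1*, *Ly86*, *Cx3cr1* and *Ccr2* were lower, with log2 fold changes from -0.59 for *Ly86* to -1.47 for *Ccr2*. The complement genes *C1qa*, *C1qb* and *C1qc* and *Mertk*, *Ms4a7* and *Fcgr1* did not pass, with values from -0.06 for *C1qa* to 0.38 for *Fcgr1*. Markers of other tissues differed as well. Median log2 fold changes were -5.32 for keratinized epithelium, -3.65 for erythroid, 0.80 for skeletal muscle and 0.79 for tooth genes. They were -1.63 for mast cell, -1.55 for megakaryocyte, -1.19 for osteoclast, -0.08 for stem cell and 0.08 for bone genes. What part these shifts had in the members' levels was not tested.

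Each member was therefore set against the pan-leukocyte mean of its own mouse, as a difference of log2 CPM. *Slamf7* was the member that stood lower on this scale without overlap. Its relative level was -2.59, -2.29, -2.38, -2.34 and -2.77 in WT replicates 1 to 5 and -4.23, -5.43, -4.33 and -3.84 across the 4 mice labelled *FcγRIIB*-/-. The difference of the means was -1.98 (two-sided exact permutation test over all splits, p = 0.00794, the smallest these 9 mice can give), and 1.18% of all tested genes were lower without overlap on this scale. *Slamf9* stood higher, between -3.49 and -2.42 in WT and between -2.03 and -1.40 in the mice labelled *FcγRIIB*-/-, a difference of 1.23 (exact permutation, p = 0.00794). Such a rise was common, since 67.4% of all tested genes were higher without overlap against the lowered leukocyte mean.

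The remaining receptors differed less between the groups on this scale. The difference was -0.48 for *Cd84* (exact permutation, p = 0.0238), and its ranges overlapped slightly. Without WT replicate 1, 3, 4 or 5 the p for *Cd84* was 0.0571 (exact permutation), where the smallest possible p is 0.0286. The difference for *Cd84* was between -0.48 and -0.45 in these cases. *Ly9* differed by -0.46 (p = 0.103, exact permutation), which was more than the SD of either group, 0.302 in WT and 0.435 in the others. The differences were -0.35 for *Slamf1* (p = 0.444, exact permutation), -0.17 for *Slamf8* (p = 0.532, exact permutation), 0.26 for *Cd48* (p = 0.175, exact permutation) and 0.16 for *Slamf6* (p = 0.690, exact permutation). None of these 5 passed the permutation test. For *Sh2d1a*, at a few counts, the value depended on the prior count added before the log: it was -0.16 with a prior count of 2 (p = 0.714, exact permutation) and -0.85 with 0.5. The 9 p-values are not adjusted over the members, and with *Ptprc* alone as the reference *Ly9* differed by -0.61 (exact permutation, p = 0.0397).

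**Figure D4:**
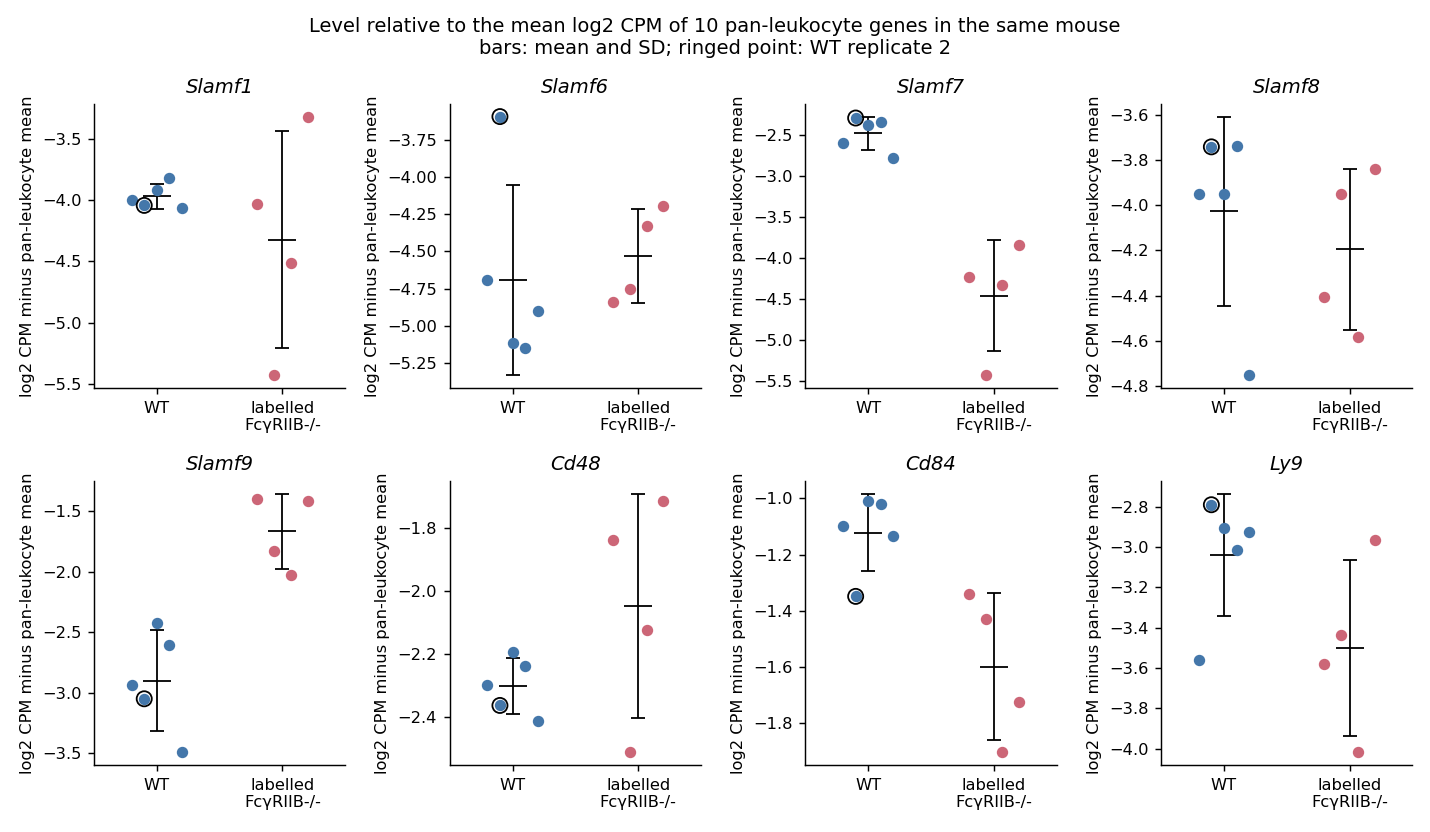
log2 CPM of each SLAM family receptor minus the mean log2 CPM of 10 pan-leukocyte genes in the same mouse (vertical axes), with 1 point per mouse, the mean and the SD, for WT and for mice labelled FcγRIIB-/-. Slamf7 lies lower without overlap (difference -1.98), Slamf9 lies higher without overlap (difference 1.23), and the other panels overlap.

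The genes through which these receptors act were read from a list of 39 partner and signalling genes, of which 38 were tested, 18 were lower and 1 was higher, beside 19.3% and 14.0% of all tested genes, with a median log2 fold change of -0.57. All 5 genes of partner receptors and their signalling chains were lower. *Cd244a*, a SLAM family receptor that binds CD48, had a log2 fold change of -1.47 (adjusted p = 0.00982), and *Cd2*, a T and NK cell receptor for CD48, one of -1.84 (adjusted p = 0.0442). In WT replicate 2 *Cd2* was at 6.10 CPM, against 0.81 to 1.52 CPM in the other WT mice. Without that mouse 15 of the partner and signalling genes were lower. *Itgam*, *Fcer1g* and *Tyrobp*, whose proteins work with SLAMF7 in the uptake of blood cells by macrophages, had log2 fold changes of -1.30, -1.04 and -0.69. The SAP-related adaptor *Sh2d1b1*, which encodes EAT-2, had one of -0.79 and did not pass (adjusted p = 0.0616), and *Sh2d1b2* had too few counts to be tested.

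Among 6 kinases 3 were lower. *Fyn*, the kinase that SAP brings, fell by 0.28 on the log2 scale (adjusted p = 0.00943) and *Fgr* by 1.11 (adjusted p = 0.0209), while the T cell kinase *Lck* had a log2 fold change of -1.39 that did not pass (adjusted p = 0.0788). Of the phosphatases that compete with SAP for the switch motif, *Inpp5d*, which encodes SHIP1, fell by 0.92 (adjusted p = 0.00250) and *Ptpn6*, which encodes SHP-1, by 0.59 (adjusted p = 0.0368), and *Ptpn11* did not pass. Downstream, 3 of 9 genes were lower (*Vav1*, *Plcg2* and *Dok2*) and 0 were higher. All 5 genes of the phagocyte NADPH oxidase, which SLAMF1 and SLAMF8 are known to regulate in phagosomes, were lower: *Cybb* had a log2 fold change of -1.76 and *Ncf1* one of -1.72, down to -0.41 for *Cyba*. The class III PI3K genes *Becn1*, *Pik3c3* and *Uvrag*, which act with SLAMF1 on phagosomes, had log2 fold changes between -0.05 and 0.17 and did not pass. In the follicular and innate-like T cell list of 6 genes, *Bcl6* rose by 0.36 (adjusted p = 0.0394) and 0 were lower. *Bcl6* averaged 44.0 CPM in WT and 56.4 CPM in the others, and the cells it came from cannot be told in whole mandible. That call was lost without WT replicate 2, 3 or 5 or without replicate 1, 2 or 3 of the mice labelled *FcγRIIB*-/-, where 0 genes of the whole list were higher. *Cxcr5*, *Icos* and *Pdcd1*, at WT means of 1.48, 1.82 and 0.97 CPM, had log2 fold changes of -2.96, -1.57 and -0.62. They did not pass (adjusted p = 0.0555, 0.0896 and 0.590). WT replicate 2 had 5.46, 5.18 and 3.17 CPM of them, against 0.35 to 0.66, 0.69 to 1.30 and 0.12 to 0.83 CPM in the other WT mice. *Zbtb16* (0.44) and *Cd1d1* (0.29) did not pass either.

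The 8 chromosome 1 members lie between 613 kb (*Ly9*) and 1605 kb (*Slamf8*) beyond the end of *Fcgr2b*, which lies at chr1:170960558-170976071 in mm10. These distances run to the lowest coordinate of each gene, which is not the transcript start for genes on the minus strand. *Slamf7* lies at chr1:171632403-171653037, *Cd84* at chr1:171839697-171890718, *Slamf9* at chr1:172458569-172478421 and *Slamf8* at chr1:172581377-172590873. Between *Fcgr2b* and *Slamf8*, 47 further genes are in the table and 41 were tested. Of these 9 were higher and 10 were lower, beside 14.0% and 19.3% of all tested genes, with a median log2 fold change of 0.00, against -1.50 for the members among them. The largest decreases past the threshold were of *Cd244a* (-1.47), *Arhgap30* (-1.15) and *Fcer1g* (-1.04), the Fc receptor gamma chain. *Cd244a* and *Fcer1g* are also counted on the partner and signalling list. The largest increases were of *Tstd1* (0.63), *Pfdn2* (0.53), a prefoldin subunit, and *Igsf8* (0.43). The Fc receptor gene *Fcgr3* fell by 0.73 (adjusted p = 0.0140) and *Fcgr4* had a log2 fold change of 0.14 (adjusted p = 0.835). An effect of the deleted allele and one of chromosome 1 sequence inherited with it cannot be told apart with these 2 groups.

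**Figure D5:**
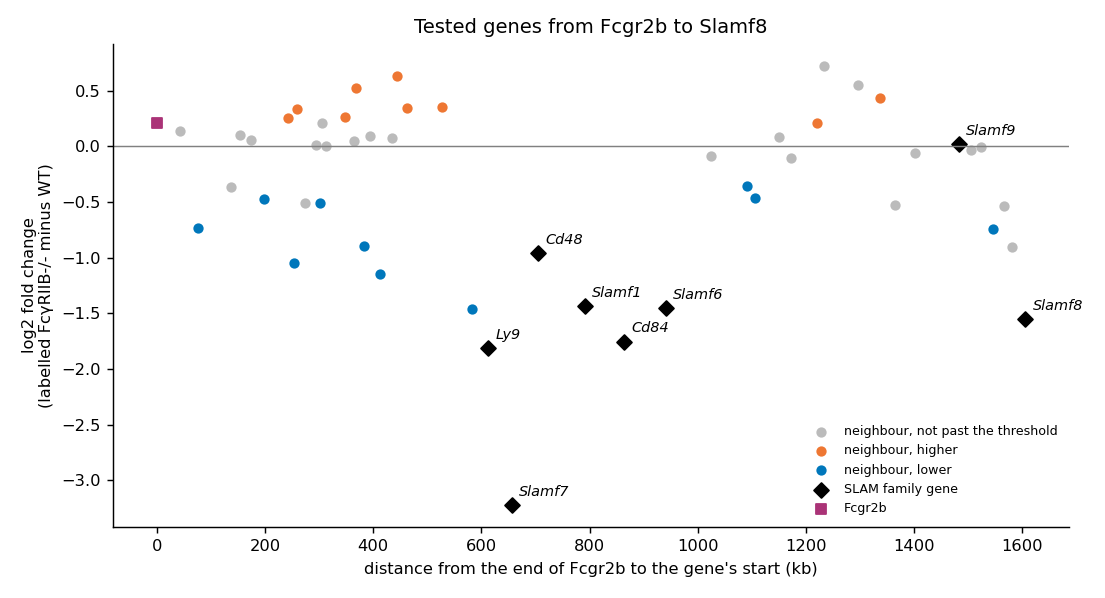
log2 fold change (vertical axis, libraries labelled FcγRIIB-/- minus WT) of the tested genes from Fcgr2b to Slamf8 against their distance from the end of Fcgr2b in kb. The start of a gene on this axis is its lowest coordinate, whatever its strand. The SLAM family genes (diamonds) lie at -0.96 to -3.22 except Slamf9 at 0.02, and the 41 neighbours (circles) lie on both sides of 0.

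Within the groups the members varied together from mouse to mouse. After the group means were removed, all 28 pairs of the 8 tested members had a positive Pearson r of log2 CPM over the 9 mice, from 0.52 to 0.97 with a median of 0.75. These are descriptions over shared libraries, and without WT replicate 2 the median was 0.61 and the lowest value 0.15. *Slamf7* and *Cd48* had the highest r, 0.97, and kept 0.97 without that mouse. *Slamf9* was closest to *Slamf7* among the members (r = 0.88), and without WT replicate 2 to *Slamf1* (r = 0.88, against 0.84 for *Slamf7*), although *Slamf7* passed the test between the groups and *Slamf9* did not. The members also varied with the pan-leukocyte genes, with r to their mean from 0.57 (*Slamf9*) to 0.93 (*Slamf6*). Without WT replicate 2 that r ran from 0.29 (*Slamf8*) to 0.92 (*Slamf6*).

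Among the 12959 other genes whose average log2 CPM reached 2, the genes whose level followed a member most closely over the 9 mice were partly white blood cell genes. *Cd48* ran with *Myo1g*, *Slamf7* and *Spn*, with r between 0.97 and 0.98, and *Cd84* with *Kcnk6*, *Kcnab2* and *Was*, likewise between 0.97 and 0.98. *Slamf7* ran with *Cd48*, *Tmsb10* and *Ptpn22* (r from 0.96 to 0.97), and *Slamf9* with *Adcy7*, *Apln* and *Tnfaip8l2* (0.92 to 0.95). Among 12960 candidates, *Slamf8* ran with *H2-Q4*, *P2ry6* and *Fcgr2b* (0.96 to 0.97), *Ly9* with *Cd86*, *Il16* and *Pacsin1* (0.96 to 0.98), *Slamf6* with *Cmah*, *C1qb* and *Neurl3* (0.97 to 0.98) and *Slamf1* with *Arrb2*, *Asl* and *Ces2e* (0.97 for each). With 9 mice and this many candidates high values arise for every gene, so the lists are descriptions only.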

How the data were processed

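Poly(A) RNA of whole mandibles of 5 WT mice and 4 mice labelled *FcγRIIB*-/- was sequenced from a directional kit as single-end reads. Trim Galore for trimming, HISAT 02.1.0 for mapping to mm10 and featureCounts for counting are the tools the authors name, and what they deposited are raw counts per gene. The strand setting of the counting and its annotation are not given in the sources used here, so genes overlapping on the opposite strand, and the paralogs *Fcgr2b*, *Fcgr3* and *Fcgr4*, are uncertain. Per-sample values in 1 column that belong to no mapped sample were left out, and 1030 rows without a symbol kept their identifiers.

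With R 4.3.3, genes were filtered with filterByExpr in edgeR 4.0.16 (minimum count 10), normalized with TMM and compared between genotypes by the quasi-likelihood test without covariates. p-values were adjusted over all genes (Benjamini-Hochberg, 0.05). The study's own tool, DESeq2 (1.42.0 here), was an alternative, beside other normalization, filters, a fold limit, a replicate block and leaving out each mouse. The 95% intervals are 1.96 standard errors. log2 CPM used a prior count of 2, and differences of low genes are understated on it. Single values were tested with a two-sided exact permutation over all splits, whose smallest p is 0.00794 with all 9 mice and larger when a mouse is left out. The test was run on simulated counts with the same dispersion for every gene, which does not cover members with a single outlying mouse. No 2 libraries of a group agreed within sampling noise. Levels per kb used the longest GENCODE transcript. Start sites and positions came from RefSeq for GRCm38.p6.

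The members and gene lists were chosen with earlier results of these data known. Named genes are the members, *Fcgr2b*, *Fcgr3* and *Fcgr4*, genes of the pathway and marker lists, the 3 chromosome 1 neighbours with the largest change past the threshold in each direction, and for each tested member the 3 genes most correlated with it. Of the marker lists, erythroid (7 of 7), megakaryocyte (8 of 8), mast cell (7 of 7) and osteoclast (6 of 7) genes were also lower, as were 1 of 8 stem cell, 2 of 7 bone and 5 of 7 keratinized epithelium genes, while 4 of 6 tooth, 4 of 7 skeletal muscle and 1 of 7 keratinized epithelium genes were higher.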

Additional observations from a re-analysis of the deposited data

Results flagged for a closer look

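In 38 sets of values, each a member or *Fcgr2b* in 1 group, the single highest or lowest mouse was compared with the gap to the others by Dixon's ratio, which chance passes in about 1 of 20 groups, and 4 stood apart. Replicate 4 of the mice labelled *FcγRIIB*-/- was highest for *Fcgr2b*, at 5.01 log2 CPM against 4.70 to 4.74 in the others of its group, and for *Slamf8*, at 0.48 log2 CPM against -0.29 to -0.18. WT replicate 5 was lowest for *Slamf8* relative to the pan-leukocyte genes, at -4.75 against -3.95 to -3.74. Replicate 3 of the mice labelled *FcγRIIB*-/- was lowest for *Sh2d1a* relative to those genes, at -8.05 against -6.85 to -6.73, and it had 0 counts.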

How the results depend on the processing

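With a limit of 1 on the size of the log2 fold change, the counts of all genes became 181 higher and 1069 lower, of partner and signalling genes 0 and 9, and of chromosome 1 neighbours 0 and 3. DESeq2's test called *Slamf6* lower (log2 fold change -1.45, adjusted p = 0.0392), and *Ptprc* alone as the reference moved *Ly9* to -0.61 (exact permutation, p = 0.0397). The labels do not say whether equal replicate numbers pair the mice, and the deviations of same-numbered mice had r between -0.11 and 0.10. A replicate block left 1594 genes higher and 2410 lower, 4 members lower and 0 partner genes higher. In it *Slamf1* (-1.43, adjusted p = 0.0846) and *Cd48* (-0.88, adjusted p = 0.114) no longer passed and *Slamf9* was -0.045. Other normalization and filters changed no call and no direction among the members they tested, and with at least 10 counts in every library *Slamf1*, *Slamf6* and *Slamf7* could not be tested. The cause of these shifts was not tested.

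Leaving out each mouse in turn gave 1781 to 2292 genes higher and 2521 to 2771 lower, 4 to 7 members lower, 13 to 20 partner genes lower and 0 to 1 higher, and 4 to 8 neighbours higher and 6 to 9 lower. The neighbours higher were 4 without replicate 1 or 4 of the mice labelled *FcγRIIB*-/-, and the neighbours lower 6 without WT replicate 1. log2 fold changes ranged from 0.13 to 0.46 for *Fcgr2b*, -1.93 to -1.11 for *Slamf1*, -1.66 to -0.68 for *Slamf6* (past the threshold without WT replicate 3, adjusted p = 0.0497), -3.49 to -2.92 for *Slamf7*, -1.77 to -1.22 for *Slamf8*, -0.13 to 0.18 for *Slamf9*, -1.13 to -0.74 for *Cd48*, -1.85 to -1.63 for *Cd84*, -2.12 to -1.52 for *Ly9* and -3.03 to -1.66 for *Sh2d1a* (past the threshold without WT replicate 1, adjusted p = 0.0373). Relative to pan-leukocyte genes the ranges were -0.69 to 0.014 for *Slamf1*, -2.19 to -1.66 for *Slamf7*, 1.08 to 1.35 for *Slamf9*, 0.14 to 0.41 for *Cd48*, -0.56 to -0.38 for *Cd84* and -0.41 to 0.15 for *Sh2d1a*. *Sh2d1a* had 0 to 2 counts in each of the mice labelled *FcγRIIB*-/-, under the floor of 3 counts.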
